A study of Mus musculus with 468 samples.

Results

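The protein genes of the cytosolic ribosome were examined in adipose RNA from Diversity Outbred (DO) mice. Members were chosen by name alone: rows whose symbol begins with Rpl or Rps and a number, together with Rplp0, Rplp1, Rplp2 and Rpsa, leaving out rows named as pseudogenes (-ps), related sequences (-rs) and the Rps6 kinases. This rule took 90 of the 23180 rows of the table, and 88 of them passed a filter of at least 10 counts in at least 50% of libraries, which 18380 rows passed in all. Of the 90, 77 encode a subunit of the cytosolic ribosome (31 of the small and 46 of the large subunit), and 13 are paralogs, retrocopies or, in one case, a binding protein (Rps19bp1). Subunit genes under other names, such as Fau and Rack1, were outside the rule.

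The study sequenced polyadenylated RNA from the visceral (gonadal) fat pad of adult DO mice, 1 library per mouse. DO mice descend from 8 inbred founder strains, so every animal carries its own mixture of founder haplotypes. All animals were fed the same high-fat, high-sugar diet, the labels name no treatment group or age, and the only orders they give are a mouse number (21 to 560) and a library number. Total counts ran from about 35298800 to 137760000 per library, with a median near 82043350. The summed level of 15 adipocyte markers (among them Adipoq, Plin1 and Fabp4) ran from 17891 to 76599 counts per 1000000 counts (CPM), with a median of 49526, so the labelled tissue was present in every library. Counts at Y chromosome genes were absent from 48.5% of libraries and present in 51.5%, and some correlations are also given within these sets. Every mean, SD and correlation was taken over all libraries unless other libraries are named. Libraries DO283, DO405 and DO360 stood apart in the level of ribosomal protein genes and are described with the score below.

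Ribosomal proteins bind ribosomal RNA in the nucleolus to build the small and large ribosomal subunits, which join on messenger RNA to translate it. Mammalian genes for these proteins are known for a tract of pyrimidines at the very start of their transcripts (the 5′ terminal oligopyrimidine, or TOP, motif), through which mTOR signalling controls their translation, and for having seeded many processed pseudogenes, intronless copies of their spliced messenger RNA. Many also carry small nucleolar RNA genes in their introns, whose products guide the modification of ribosomal RNA.

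Start sequences from RefSeq (build GRCm38.p6) were available for 66 of the 90 members, 57 of them subunit genes. A TOP-like tract is the feature these transcripts are known to share, so 5 windows of 30 bases are shown, from 15 bases before the annotated start, with the longest run of C and T in capitals. They belong to the 2 subunit genes whose own rows varied most closely with the rest (Rps18 and Rps10), to Rps27, and to the paralogs Rps27l and Rpl22l1, whose levels followed mouse number. The run shown for Rps27l ends before the annotated start, so it is not at the start of the annotated transcript. At another annotated start of Rps27l the longest run was 4 bases.
Rps18 (chr17:33955651-33955680, minus strand): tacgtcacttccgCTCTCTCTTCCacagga
Rps10 (chr17:27635230-27635259, minus strand): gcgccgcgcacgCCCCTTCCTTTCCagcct
Rps27 (chr3:90213634-90213663, minus strand): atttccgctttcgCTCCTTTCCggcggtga
Rps27l (chr9:66946071-66946100, plus strand): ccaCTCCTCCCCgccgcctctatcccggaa
Rpl22l1 (chr3:28805493-28805522, plus strand): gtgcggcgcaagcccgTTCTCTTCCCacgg

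Among the 57 subunit genes, 25 (43.9%) had a run of at least 8 pyrimidines in such a window, against 13.9% of all 27025 genes with start sequences. These were not limited to genes with a row of counts, and are the "all genes" of the motif shares below. Runs lying before the start were counted too. A C and 4 pyrimidines beginning within 5 bases of the start were found in 27 of 57 subunit genes (47.4%) and in 21.2% of all genes. CTTTC, searched on the coding strand only and within 50 bases of the start, was found in 31 of 57 subunit genes (54.4%) and in 14.6% of all genes. The letters CGGAAG, the core of the sites bound by ETS-family factors such as GABP, were searched on both strands of the 300-base window and can overlap a pyrimidine run on the opposite strand. They were present in 40 of 57 subunit genes (70.2%) and in 18.8% of all genes. TATAAA in the 50 bases before the start was in 0 of 57 subunit genes and 3.15% of all genes. In the annotation (GENCODE release M21), 30 of the 77 subunit genes (38.96%) had at least 1 small nucleolar RNA gene inside their bounds on the same strand, against 1.68% of 15211 protein-coding genes past the filter, and Rpl4 held 5. Genome positions of the subunit genes were spread over 19 chromosomes, with 14 genes on chromosome 7 and 4 on the X chromosome.

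Near-identical copies shape what can be measured for these genes. By alignment of each coding sequence to all annotated transcripts, 982 genes were at least 90% identical to a subunit gene over at least 80% of its coding sequence, and 360 of these near copies had a row in the table. Of those 360 rows, 95.3% were annotated as pseudogenes, and none was a near copy of more than 1 subunit gene. A near copy in the table was found for 71 of the 77 subunit genes, and the other 6 included Rpl8, Rpl38, Rps3, Rps9 and Rps21. Pairs whose coding sequences differed at a single base are shown over 30 coding bases, with the differing base in capitals, because all their other coding bases are the same. The substitution gives the gene's base, its position from the first base of the coding sequence, and the base of the copy.
Rpl19 (chromosome 11; G191A): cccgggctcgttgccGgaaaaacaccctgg
Rpl19-ps11 (chromosome 8): cccgggctcgttgccAgaaaaacaccctgg
Rpl9 (chromosome 5; G266A): tcacgctgggcttccGatacaagatgcggt
Rpl9-ps6 (chromosome 19): tcacgctgggcttccAatacaagatgcggt
Rpl23 (chromosome 11; C253T): gtggtaattcgacaaCgaaagtcatatcga
Gm9794 (chromosome 6): gtggtaattcgacaaTgaaagtcatatcga

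The 77 subunit genes held 1.16% ± 0.210 (SD over all libraries) of all counts by their own rows, and 1.42% ± 0.256 together with their near copies. In bulk tissue, fewer cells of a type and less RNA per cell cannot be told apart. Levels between genes were compared as CPM per kilobase of coding length. By their own rows, the means of the subunit genes differed 134.6-fold, from 17.2 CPM per kb for Rpl5 to 2313 for Rpl41. After the counts of near copies were added to those of the gene, the same range was 15.9-fold, from 188.5 for Rpl34 to 2998 for Rpl41. The 5th and 95th percentiles lay at 205.6 and 599.2 CPM per kb with near copies added, around a median of 347.5, so most subunit messenger RNAs stood within a narrow band of levels. Median levels were 350.6 for small-subunit and 335.8 for large-subunit genes.

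The 3 highest levels per kb belonged to short proteins. Rpl41, whose product of 25 residues is the smallest of the ribosome, had 2998 ± 502.04 CPM per kb (SD), but for a coding length of 75 bases the untranslated parts of the transcript make up most of what is counted, so this value overstates its molecules. Rps29 (56 residues) had 825 CPM per kb and Rplp1, an acidic protein of the ribosomal stalk, 644.8. Rpl23a, Rpl21 and Rpl10 followed at 601.7, 598.6 and 595.7. Across the 77 genes the level per kb had a Spearman rho of -0.05 with protein length. At the low end stood Rpl34 (188.5), Rpl10a (190.4), Rpl36a (196.5), Rps13 (201.04) and Rpl18 (206.9), and these neighbours differed by less than their SD between libraries (from 26.6 for Rps13 to 34.9 for Rpl10a). In total counts Rps2 led with 412.4 ± 63.2 CPM including its copies, whereas by own rows alone Rpl4, the longest of these proteins, which lines part of the exit tunnel, led with 377.4 CPM.

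**Figure D1:**
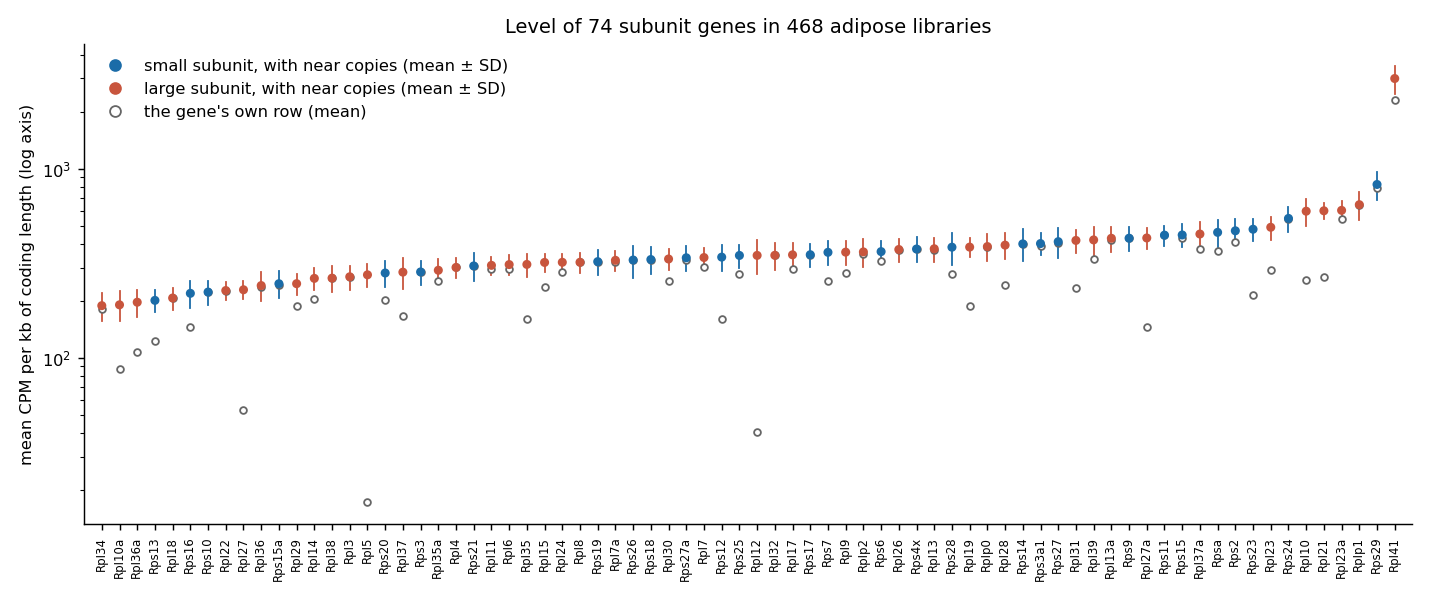
Mean level of 74 subunit genes in CPM per kb of coding length (log axis), in ascending order of the level with near copies added. Filled points with bars give mean ± SD over all libraries with near copies added (blue, small subunit; red, large subunit), and open points give the mean of the gene's own row, which for Rpl5 lies at 17.2 against 274.4 with its copies.

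As the rows stand in the table, the members shared only part of their variation. Over the 3828 pairs of the 88 members past the filter, the median Pearson r of log2 CPM across libraries was 0.25 (5th to 95th percentile, -0.02 to 0.78), and the first principal component held 40.1% of their variance. It was 0.26 within libraries without Y counts, 0.23 within those with Y counts, and between 0.23 and 0.28 in 5 consecutive blocks of mouse number. These correlations are descriptions, since all genes of a library share its depth and scaling. Without the scaling by trimmed mean of M-values (TMM), the median rose to 0.44.

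Among the members closest to the mean of the other members were Rps18 (r = 0.95), Rps10 (0.94), Rpl26 (0.94) and Rps3 (0.92). Rps18 and Rps10 encode proteins of the head of the small subunit. Rps18 had 80.2 CPM at the lowest, 148.4 at the median and 433.6 at the highest library, and Rps10 had 62.04, 108.6 and 316.4. The SD was 23.9 CPM for Rps18 and 16.1 CPM for Rps10. Farthest from the other members were Rps4l, at -0.17 with TMM scaling but 0.11 without it, and Rpl37rt (0.03), Rps3a2 (0.04), Rps19bp1 (0.04), Rpl3l (0.07), Rpl7l1 (0.08), Rpl5 (0.08) and Rpl9 (0.09). Of these 8, Rpl5 and Rpl9 are canonical subunit genes, and Rpl5 is a core protein of the particle that carries 5S ribosomal RNA into the large subunit.

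Much of the spread in own-row correlations was gone once near copies were added. For each of the 77 subunit genes, r was taken with the mean of the other 76. By own rows the median of these values was 0.71, with a range from 0.08 for Rpl5 to 0.95 for Rps18, and 27 genes lay below 0.5. With near copies added to every gene, the median was 0.88, the range ran from 0.54 (Rplp2) to 0.95 (Rps18), and no gene lay below 0.5, since all 77 reached it and 65 reached 0.8. Over pairs of subunit genes the median r went from 0.34 to 0.76, and the first component from 45.1% to 74.8% of variance. Within the 5 mouse number blocks the pairwise median with copies lay between 0.70 and 0.82, and it was 0.78 in libraries without and 0.76 in those with Y counts. Leaving out DO283, DO405 and DO360 gave pairwise medians of 0.29 by own rows and 0.71 with copies. By gene against the other 76, the median r was then 0.65 by own rows and 0.86 with copies. With copies 76 of 77 genes stayed at 0.5 or more.

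**Figure D2:**
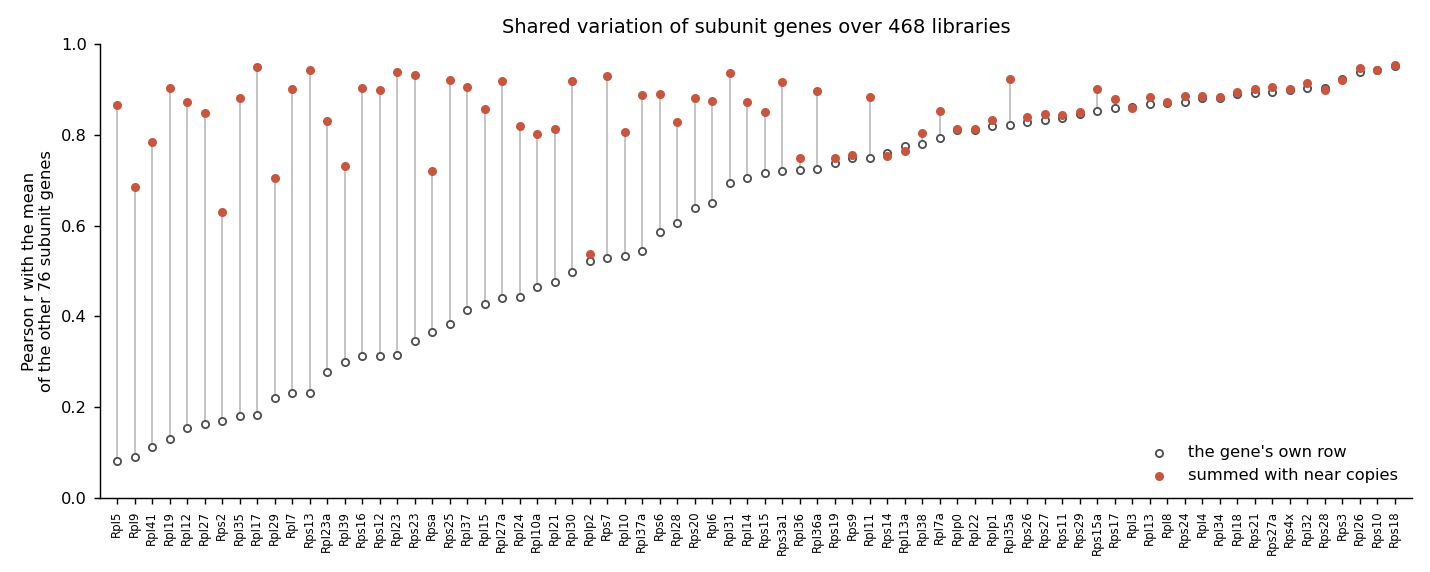
Pearson r of each of 74 subunit genes with the mean of the other 76 over all libraries, by the gene's own row (open points) and with near copies summed (filled points). Rpl5 moves from 0.08 to 0.87 and Rpl19 from 0.13 to 0.90, while Rps18 and Rps10 at the right hardly move.

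Rpl19 showed the clearest division between a gene and its copy. Rpl19 (chr11:98026710-98030492) encodes a protein of the large subunit next to the exit tunnel, and its own row ran from 4.54 CPM at the lowest library through 105.5 at the median to 341.1 at the highest, a 75.1-fold range. Its copy Rpl19-ps11, a processed pseudogene on chromosome 8 (chr8:19492936-19493526) that differs at 1 coding base, averaged 115.2 ± 93.4 CPM and had an r of -0.76 with it. The sum of the gene and its 3 near copies ran only from 149.6 to 559.5 CPM around a median of 223.2, and its SD on the log2 scale was 0.15, against 2.14 for the own row. Libraries fell into 3 separate sets by the share of the summed counts that the Rpl19 row held. It was under 10% in 38.5% of libraries, between 35 and 65% in 27.1%, over 90% in 34.4%, and in no library between 10 and 35% or between 65 and 90%.

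Rpl9 followed the same form. Its row, for a protein of the large subunit near the factor-binding site, had 7.41 CPM at the lowest, 195.5 at the median and 453.95 at the highest library. Rpl9-ps6, annotated as protein-coding on chromosome 19 and different at 1 coding base, had an r of -0.87 with it. The Rpl9 share of the sum was under 10% in 17.5% of libraries, from 35 to 65% in 8.12% and over 90% in 74.4%, with none in between. The summed counts had a median of 208.96 CPM and an SD of 0.21 on the log2 scale, where the Rpl9 row had 1.64.

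Rpl23 and Rpl35, each also with 1 differing base, split less completely. The Rpl23 row held between 34.7 and 80.6% of the counts it shared with Gm9794, so neither row was empty in any library, and the r between them was -0.80. For Rpl35 and Gm2000 (r = -0.50), the Rpl35 share was under 10% in 10.5% of libraries, between 10 and 35% in 12.2%, between 35 and 65% in 63.7% and over 90% in 13.5%. With copies added, r with the other subunit genes went from 0.32 to 0.94 for Rpl23 and from 0.18 to 0.88 for Rpl35.

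For other members the leading copy had a coding sequence with no difference at all, and the copy held most of the counts. Rpl5 (chr5:107900502-107909005) held 6.30% of its summed counts, and all 891 coding bases were the same in Gm15500, a transcribed processed pseudogene on chromosome 7 (chr7:114705217-114706235). Its own row had 7.26 CPM at the lowest, 12.1 at the median and 79.9 at the highest library, while Gm15500 had 151.8, 224.04 and 621.3. The 2 ranges did not overlap. Rpl12 (chromosome 2), a protein of the stalk base, held 11.6% of its sum, with Gm10275 on chromosome 10 the leading copy at 136.7 ± 46.99 CPM and identical over the whole coding sequence. Rpl27 held 23.2% of its sum, and its leading copy was likewise identical. Identity was checked in the reference annotation only, with no founder strain sequences, and the table alone does not tell which locus made the RNA.

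**Figure D3:**
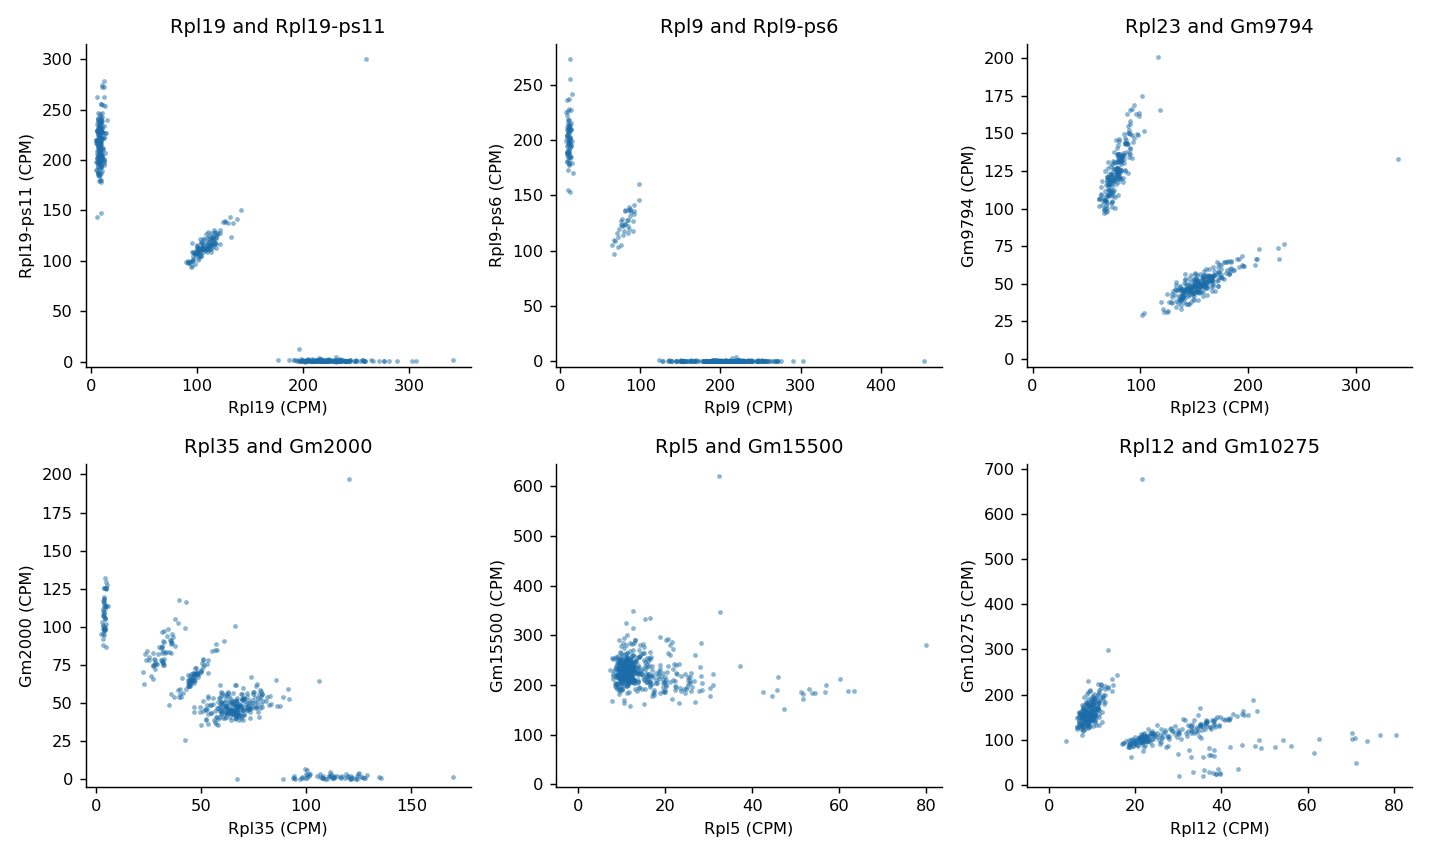
CPM of 6 subunit genes (horizontal axes) and of their leading near copies (vertical axes), 1 point per library. Rpl19 and Rpl9 form 3 separate groups of points, 2 of them close to an axis, Rpl23 forms 2 arms, and Rpl5 and Rpl12 lie at low values while their copies have medians of 224.04 and 138.9 CPM.

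Among the 27 subunit genes whose own row had an r under 0.5, the leading copy differed at 0 coding bases for Rpl5, Rpl10a, Rpl12, Rpl15, Rpl27, Rpl27a, Rpl41, Rps12, Rps13, Rps16 and, over its aligned part, Rps23, and at up to 10 for the others (Rpl7 and Gm12174). Rps13, on the body of the small subunit, went from r = 0.23 to 0.94 with copies added, and Rpl7 from 0.23 to 0.90. For Rpl17 the own row ran from 1.88 to 587.04 CPM, and r went from 0.18 to 0.95. A change of this kind was not seen for every gene. Rplp2, a stalk protein that pairs with Rplp1, went only from 0.52 to 0.54, and its one near copy in the table, Wdr89, held little of the sum, of which Rplp2 itself had 97.6%. Rps2, Rpl9, Rpl29, Rpsa and Rpl39 also stayed at the low end with copies added, at 0.63, 0.69, 0.71, 0.72 and 0.73.

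The second component of the summed subunit genes held 4.22% of variance. At one end were Rplp2 (r with the component, 0.72), Rpl36 (0.55), Rps2 (0.41), Rps19 (0.39) and Rpl24 (0.38), and at the other Rpl10 (-0.45), Rpl12 (-0.37) and Rps27a (-0.31), which is made as a fusion with ubiquitin. It had an r of -0.07 with mouse number and 0.03 with log2 total count. Small-subunit and large-subunit genes did not separate: the mean z-scores of the 31 small-subunit and 46 large-subunit genes had an r of 0.99 with each other. The log2 ratio of their summed counts was -0.61 ± 0.03 (SD over all libraries) and stayed between -0.70 and -0.49 in every library.

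Expression variability, as edgeR's biological coefficient of variation (BCV) across mice, had a median of 0.167 for own rows of subunit genes and 0.137 with near copies, against 0.187 for the 9508 genes averaging 10 CPM or more. The lowest own-row value was that of Rpl22, at 0.111, and the lowest with copies that of Rpl21, at 0.093. The 6 most variable members were Rps3a2 (2.19), Rpl19 (1.13), Rpl3l (1.03), Rps3a3 (1.02), Rpl37rt (0.954) and Rpl9 (0.812). With copies added, the BCV of Rpl19 and Rpl9 fell within the range of the subunit genes, whose highest value was 0.179 (Rps27).

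The 13 members that are not canonical subunit genes moved with the subunit genes to different degrees. Rpl36al, a paralog of Rpl36a, was expressed at 51.9 ± 9.10 CPM, above the 34.3 CPM of the Rpl36a row. With near copies added the order was reversed, at 62.5 CPM for Rpl36a and 52.95 for Rpl36al. Rpl36al had the highest r of the 13 with the other members (0.55), and the Rpl36a and Rpl36al pair had an r of 0.43. Rpl22l1, the paralog of Rpl22, averaged 36.3 ± 6.53 CPM against 86.8 for Rpl22, with an r of 0.14 between them. Rps27l, known as a p53-inducible paralog of Rps27, averaged 34.8 ± 5.03 CPM against 102.4, with an r of 0.09. Rpl7l1 (42.6 CPM), a relative of Rpl7 that acts in assembly of the large subunit, had an r of 0.04 with Rpl7. For comparison, the pair of stalk genes Rplp1 and Rplp2 had an r of 0.58. None of these pairs had a coding sequence close enough to be a near copy, apart from Rps27 and Rps27rt (r = 0.08), of whose summed counts Rps27rt held 1.10%. Without TMM factors r was 0.70 for Rpl36a and Rpl36al, 0.59 for Rpl22 and Rpl22l1, and 0.48 for Rps27 and Rps27l.

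Among the remaining paralogs, the muscle paralog Rpl3l was low in most libraries (median 0.288 CPM, highest 17.7) beside 322.3 CPM for Rpl3, and Rpl39l, known from testis, had 0 counts in 38.7% of libraries, a median of 0.028 CPM and a highest value of 28.1. Rps4l, annotated as a transcribed processed pseudogene, averaged 9.83 ± 3.80 CPM, and its r with Rps4x was -0.22 with TMM scaling and 0.08 without. Rps19bp1, the binding protein of Rps19, averaged 9.25 ± 1.55 CPM. The retrocopies Rps3a2 (median 0.447, highest 161.3 CPM) and Rps3a3 (0.139 and 2.93) are near copies of Rps3a1, and Rpl37rt (33.1 and 108.2) is the leading copy of Rpl37, so their rows share the limit described for Rpl19. Rpl6l, at a mean of 0.124 CPM, is a near copy of Rpl6.

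A subunit score was formed as the mean z-score of the 77 summed genes, so that 0 is the mean of all libraries. Its median was -0.03, and most libraries lay close to it, with an SD of 0.861. DO283 was highest at 7.11, and its subunit genes with copies held 3.35% of counts, against a median of 1.40%. DO137 (3.51), DO232 (3.02) and DO483 (2.94) came next, and DO405 (-3.75) and DO360 (-3.07) were lowest, with 0.503 and 0.613% of counts. In the same libraries other values stood apart. In DO405 and DO360 the ribosomal RNA gene CT010467.1 took 28.4 and 19.2% of counts, against a median of 1.82%, and their TMM factors of 0.578 and 0.637 were far below the median of 1.01. DO283 had the lowest total count of all, a summed adipocyte marker level of 19077 CPM, near the lowest of the series, and 17070 CPM of Ceacam10, whose median was 0.134. The part of these features in the score was not tested.

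**Figure D4:**
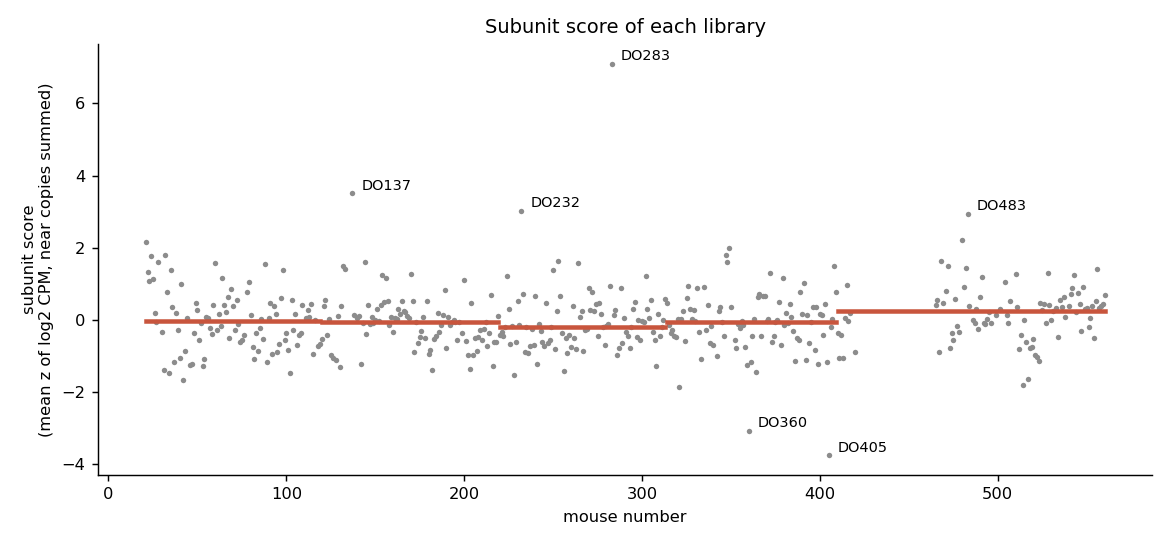
Subunit score (mean z of log2 CPM over 77 genes with near copies summed) of each library against mouse number. Bars mark the medians of 5 consecutive blocks, which lie between -0.19 and 0.26, and the named libraries reach from -3.75 (DO405) to 7.11 (DO283).

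Genes outside the rule were ranked by their r with the subunit score. Among 9096 named genes averaging 10 CPM or more, leaving out members, near copies, pseudogenes and predicted genes, the median r with the score was -0.03. The 6 highest were Rack1 (0.86), a protein of the small subunit head, Eef1b2 (0.85) and Eef1a1 (0.77), elongation factors, Tpt1 (0.78), the translationally controlled tumour protein, Eif3h (0.74), a subunit of initiation factor 3, and Impdh2 (0.71), which makes guanine nucleotides. For Rack1, r was 0.89 in libraries without and 0.84 in those with Y counts. Of 19 listed translation genes known for TOP messenger RNAs outside the rule, 11 had an r of at least 0.5, with a median of 0.57, and the score of that list had an r of 0.83 and a rho of 0.76 with the subunit score (0.76 to 0.90 in the 5 blocks, 0.81 without the 2 farthest libraries).

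Most listed genes of other parts of the machinery did not share this pattern with TMM scaling. Only 3 of the 27 initiation factors of that list reached an r of 0.5, among them Eif3m (0.57) and Eif3k (0.53), and Eif4g1 lay at -0.51. The initiation factors Eif3h (0.74), Eif3f (0.59), Eif4b (0.58), Eif4a2 (0.19) and Eif3e (0.18) were counted with the TOP list instead. Among 36 ribosome biogenesis genes 2 reached 0.5 (Npm1 was counted with the TOP list at 0.61, and Nop56 stood at 0.55), with a median of 0.13. None of the 19 genes of the mTOR list reached 0.5, with a median of -0.01 and Rps6kb1, the S6 kinase, at -0.46. List scores gave r = 0.03 for initiation factors, 0.21 for biogenesis, -0.02 for mTOR, 0.01 for 78 mitochondrial ribosomal proteins and 0.00 for oxidative phosphorylation. Without TMM factors these values were 0.76, 0.76, 0.70, -0.02 and -0.33, so apart from the mitochondrial ribosomal proteins they depended on the scaling, whereas the TOP list stood at 0.95.

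The 6 genes with the lowest r were Taok1 (-0.70), Qk (-0.67), Kpna4 (-0.65), Nbeal1 (-0.64), Lmbrd2 (-0.63) and Strn3 (-0.63). Without TMM factors they lay between -0.30 (Qk) and 0.16 (Strn3), with Taok1 at -0.02 and Kpna4 at 0.09. Their values thus changed with the scaling, and the cause of that change was not tested. For marker lists of cell types, r with the score was -0.27 for adipocytes, -0.31 for endothelium, 0.22 for progenitors and fibroblasts, 0.20 for mesothelium, 0.03 for macrophages, 0.10 for T cells and 0.08 for B cells. Without TMM factors these values were, in the same order, -0.24, 0.34, 0.64, 0.44, 0.49, 0.41 and 0.41. Markers of red blood cells, muscle, mitosis and immediate early response had r values between -0.04 and 0.05 (between 0.03 and 0.38 without TMM factors), and mitochondrially encoded genes -0.18 (-0.54 without).

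Mouse number was tested in a fit of all 18380 genes (edgeR quasi-likelihood test, with library number in the model, Benjamini-Hochberg adjusted p under 0.05). In all, 2 members rose with mouse number and 0 fell, against 11.7% of all genes called rising and 12% called falling. Both were paralogs. Rps27l rose by 0.03 log2 units per 100 mouse numbers (0.0273 ± 0.00593 SE, adjusted p = 0.000218), and Rpl22l1 by 0.0251 ± 0.00778 (adjusted p = 0.0110). In Rps27l the block medians were 33.02, 34.1, 34.1, 34.4 and 37.4 CPM from the earliest to the latest mice, and the ranges of the first (24.04 to 46.6) and last block (25.3 to 50.6) overlapped over most of their width. Rpl22l1 had block medians between 35.4 and 37.96 CPM, the highest in the last block. Its call was lost when Xist and Y-linked genes entered the model (adjusted p = 0.112). The median slope of the 88 members was 0.01, against 0.00 for all genes, and the members' calls were thus fewer than the background share.

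With near copies added, 4 of 77 subunit genes rose with mouse number and 0 fell, against 11.8 and 12.1% of 18257 rows. These were Rpl10a (0.0195 ± 0.00724 SE per 100 mouse numbers, edgeR adjusted p = 0.0348), Rpl41 (0.0191), Rpl27 (0.0144) and Rpl29 (0.0142). The 10 libraries with the most extreme member score were then left out. Without them 12 of the 88 own rows rose, against 12.1% of all genes called rising in that fit. Among the 12 were Rpl12, Rps27l, Rpl22l1, Rps15a and Rps10, with slopes from 0.0128 (Rpl36al) to 0.0800 (Rpl12). The 10 were picked by the members' own levels, so these slopes are not independent of that choice. The Rpl12 row held 11.6% of its summed counts. In all libraries the Rpl12 slope was 0.0670 by own row and 0.0139 with near copies (edgeR adjusted p = 0.0561 and 0.146). The score over all members had an r of 0.06 and a rho of 0.09 with mouse number, between -0.24 and 0.11 within the 5 blocks. Library number was associated with 0 members by edgeR, where 0 had an unadjusted p under 0.05, against 9.09% of all genes. It was also associated with 0 members by limma and by DESeq2. There 1 and 0 members had an unadjusted p under 0.05, against 5.54% (limma on log2 CPM) and 10.2% of all genes. By adjusted p the edgeR background was 0.131% of genes rising and 0.136% falling. In the same fit, 0 of the 19 TOP genes outside the rule rose with mouse number and 2 fell, Eif4a2 (an initiation helicase) by 0.0385 ± 0.0101 log2 units per 100 mouse numbers and Npm1 by 0.0174 (edgeR adjusted p = 0.00239 and 0.0193). Of the 36 biogenesis genes 3 rose and 3 fell, of the 27 initiation factors 2 rose and 2 fell, of the 19 mTOR genes 0 rose and 3 fell, and of the 78 mitochondrial ribosomal protein genes 1 rose and 2 fell.

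Depth was tested as the log2 total count in a fit that also held both numbers, with the library size already scaled out. Of 88 members, 21 fell with depth and 0 rose, against 3.08% of all genes called falling and 0.245% called rising. With near copies, 30 of 77 subunit genes fell and 0 rose, against 3.17 and 0.246% of rows. The members' median slope was -0.10 log2 units per doubling of the total count, against -0.01 for all genes, and 80 of the 88 slopes were below 0. Among the steepest called members were Rps21 (-0.20), Rpl38 (-0.20 ± 0.04 SE, edgeR adjusted p = 0.000180) and Rps29 (-0.20). All of the 21 except Rpl36al are canonical subunit genes.

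The number of calls varied with the libraries and with the tool, for members and for all genes alike. With the DESeq2 Wald test 23 members fell with depth and 0 rose. There 42 members had an unadjusted p under 0.05 (47.7%, against 11.9% of all genes), and the members' median slope was -0.11. The calls were also 23 falling and 0 rising by edgeR with DESeq2 size factors in place of TMM. They were the same in number with Xist and Y-linked genes in the model. Other settings gave fewer calls. Without the tenth of libraries of lowest depth, 1 member was called, against 1.12% of all genes called falling. The members' median slope was -0.08 with 71 of 88 below 0, against -0.005 for all genes. Without TMM factors 1 member was called, against 1.72% of all genes. The members' median slope was -0.08 with 76 below 0, against 0.013 for all genes. With limma on log2 CPM 0 members were called, against 0.0109% of all genes called falling. Of the members 19 had an unadjusted p under 0.05 (21.6%, against 6.29% of all genes). Their median slope was -0.06 with 74 below 0, against 0.009 for all genes. With limma on the deposited transformed values 0 were called, against 0.0979%. Here 23 members had an unadjusted p under 0.05 (26.1%, against 6.97%). Their median slope was -0.06 with 75 below 0, against -0.001 for all genes. DO283, with the lowest depth, had the highest score. Without the 10 libraries whose member score was farthest from the median, 0 members were called by edgeR, against 0.43% of all genes called falling. An unadjusted p under 0.05 was found for 7 members (7.95%, against 4.85% of all genes). The median slope was -0.02, against -0.004 for all genes, and 58 slopes were below 0. These 10 were picked by the members' own levels, so the slopes without them are not independent of that choice. Rpl36al, which ran from 32.1 to 210.2 CPM, had a slope of -0.17 in all libraries and 0.01 without those 10. The score over all members had an r of -0.09 and a rho of -0.06 with log2 total count, -0.02 without the 2 libraries of most extreme depth, and between -0.41 and 0.34 within the 5 blocks of mouse number.

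**Figure D5:**
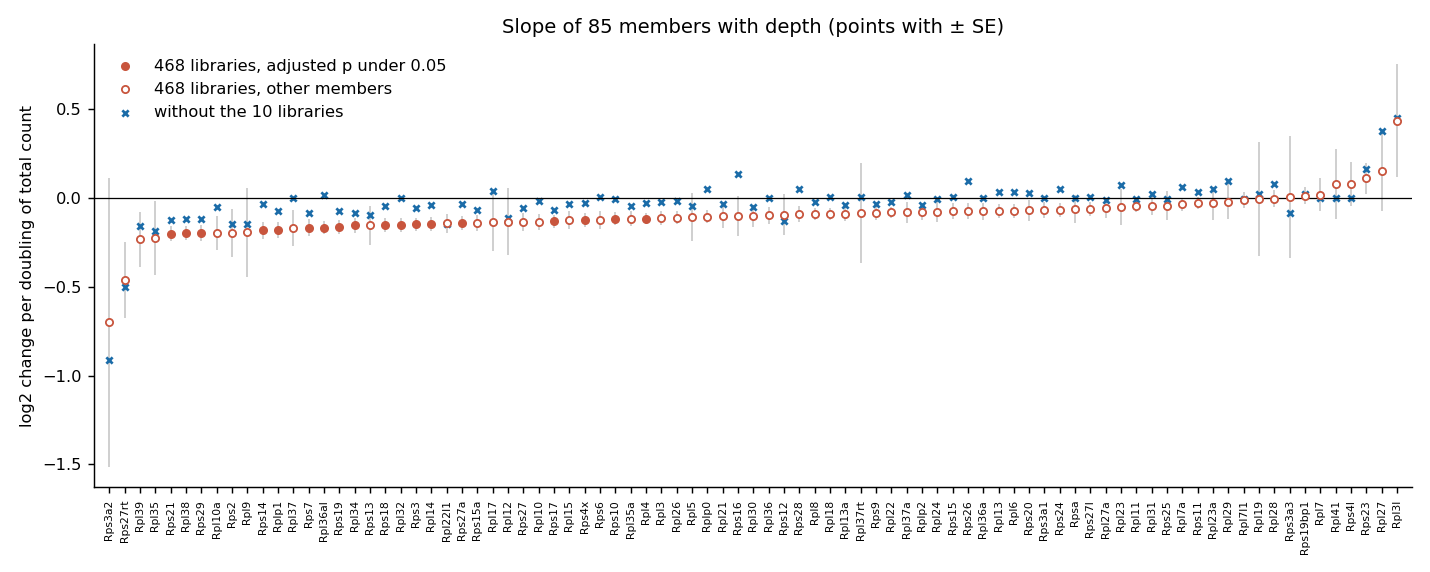
Slope of each of 85 members with log2 total count, in log2 units per doubling, with bars of ± 1 SE for all libraries (filled points, edgeR adjusted p under 0.05; open points, other members) and crosses for the slope without 10 libraries of extreme score. Filled points lie between -0.20 and -0.12, and the crosses of most members lie closer to 0.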

How the data were processed

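Libraries of polyadenylated adipose RNA were sequenced, 1 for each of 468 DO mice. The authors aligned the reads of each pair as single ends to a transcriptome joining the 8 founder strains and estimated expected counts per gene with EMASE (GBRS); the deposited expected counts are not scaled, 66.8% of values were whole numbers within 1e-06, with no tool version stated in the labels or methods. The authors also deposited log2-scale values from the variance stabilizing transform (VST) of DESeq2, per the submitters' processing notes on build GRCm38, used here only as an alternative. The authors' rows with under 1 read in at least 50% of samples had been removed.

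Expected counts were rounded and tested with edgeR 4.0.16 (TMM, quasi-likelihood test, at least 10 counts in at least 50% of libraries, Benjamini-Hochberg over all genes, threshold 0.05) in R 4.3.3; limma 3.58.1 and DESeq2 1.42.0 served as alternatives. Log2 CPM used a prior count of 2. On simulated data for 18380 genes, 83% of slopes of 0.1 and 97% of slopes of 0.25 with mouse number were recovered. The simulated counts were drawn separately for each gene. Slopes given here for members called with mouse number were all smaller than 0.1, so recovery at their size was not simulated. Coding sequences came from GENCODE M21, whose bounds equalled the deposited ones for 90 of 90 members, and near copies were found with BLAST+ 2.17.0 (at least 90% identity over at least 80% of the coding sequence, coding strand). Counts of near copies were added to those of the gene, an analysis chosen after seeing the data.

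The rule on names alone set the members. That rule, the gene lists and the genes named were chosen with earlier results of these data known. Named members were those at the ends of level per kb, of r with other members, of BCV and of called slopes, plus all paralogs. Other genes named were the 6 highest and 6 lowest in r with the score, and up to 4 examples per translation list. The replicates are separate mice, and correlations carry no test. Some items are not reported here.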

Additional observations from a re-analysis of the deposited data

How the results depend on the processing

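No paired analysis was possible because the libraries form a single group. The spread against which a correlation or share was judged was its SD over the 5 mouse number blocks. The causes of the changes below were not tested.

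Calls with mouse number went from 2 of 88 members to 4 with total counts and no TMM factor. They were 12 without the 10 libraries of most extreme member score, and 4 of 77 subunit genes with near copies summed. Of all 18380 genes, 4362 were called in either direction in the main fit, 3941 with no TMM factor and 4457 without the 10 libraries. With near copies summed, 4375 of 18257 rows were called. Calls with depth went from 21 to 1 with no TMM factor, 1 without the 10% of libraries of lowest total count, and 0 without the 10 libraries. They were 0 with limma on log2 CPM and 0 with limma on the deposited values. All genes called falling went from 3.08% to 1.72, 1.12, 0.43, 0.0109 and 0.0979% in the same order. With the DESeq2 Wald test the members' calls with depth were 23, which is counted below as within bounds. The depth slope of Rpl36al was -0.17 in all libraries and 0.013 without the 10.

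The median pairwise r of the 88 members (0.25) was 0.44 with no TMM factor, 0.30 without the paralog list, 0.30 by Spearman, 0.21 without the lowest 10% of depth, 0.17 without the 10 libraries, 0.21 without DO405, DO360 and DO283, and 0.73 with near copies summed. The first component (40.1%) was 54.1, 43.4, 34.2 and 69.2% with no TMM factor, without the paralog list, without the 10 libraries and with near copies. Both values with near copies summed also left out the rows of Rpl37rt, Rps27rt, Rps3a2 and Rps3a3, so they differ in the genes too. With no TMM factor the score's r with the TOP list (0.82) was 0.94.

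Among subunit genes, the pairwise median by own rows (0.34) was 0.54 with no TMM factor and 0.29 without the 3 libraries, and with copies (0.76) it was 0.89 with no TMM factor. Paralog pairs with no TMM factor had r = 0.20 for Rpl3 and Rpl3l, 0.21 for Rpl7 and Rpl7l1, 0.59 for Rpl22 and Rpl22l1, 0.70 for Rpl36a and Rpl36al, 0.079 for Rps4x and Rps4l, 0.48 for Rps27 and Rps27l, 0.17 for Rps27 and Rps27rt and 0.68 for Rplp1 and Rplp2. Of the other alternatives, 75 left such a value within its bounds. The alternatives with near copies and those without DO405, DO360 and DO283 were chosen after seeing the data.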

Other observations

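Splits between a gene and its copy were not limited to a few names. Own-row shares showed that Rps2, a protein at the entry of the messenger RNA channel, held over 90% of its summed counts in 73.1% of libraries, 35 to 65% in 22.9% and under 10% in 3.21%. Rpl41 held over 90% in 56.2% of libraries, 65 to 90% in 28.4% and under 10% in 8.55%. Rps10, at the other extreme, held over 90% in every library.

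The retrocopy Rps3a2 ran up to 161.3 CPM with a median of 0.447, and Rpl9-ps6 and Rps2-ps13 reached 273.5 and 373.1 CPM. These rows are near copies of abundant subunit genes, and the values are those of the rows as deposited.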
